A study of Mus musculus with 12 samples.

Results

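The genes described here are the Rab small GTPases, taken as every gene of the deposited expression table whose symbol is Rab, a number and at most 1 letter from a to d. The rule found 57 genes among the 17576 of the table, and used no measured value. RNA was sequenced from C18-4 cells, an established mouse line of spermatogonial stem cell origin, with the strain labelled IRC mouse. The 12 libraries formed 4 groups of 3: 3NC, 5NC, 8276KD, in which a virus inhibited the long noncoding RNA lncRNA8276, and 8276OV, in which a virus overexpressed it. The labels do not spell out 3NC and 5NC. They were read as control groups that the design text places beside knockdown (3NC) and overexpression (5NC), so 8276OV was compared with 5NC and 8276KD with 3NC. All 4 groups are the same cell line, so every comparison is within 1 line. No dose, time after infection or separate culture is labelled. The p-values rest on the scatter between libraries of a group, pooled for each gene over the 4 groups, and this scatter may be technical. It was not alike in all groups: for Rab11b the SD was 1.55 in 5NC and 7.65 in 8276OV. The level of lncRNA8276 was not analysed here, so it gives no check of the labels. In RNA from bulk cultures, a smaller share of cells that express a gene cannot be told apart from less RNA per cell.

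Rab proteins are molecular switches of membrane traffic. Bound to GTP they recruit effectors that move, tether and fuse vesicles, and bound to GDP they are taken off the membrane. Exchange factors (GEFs) load GTP, GTPase-activating proteins (GAPs) speed its hydrolysis, and the Rab geranylgeranyl transferase with its escort proteins adds the lipid anchor. Each organelle carries its own set: Rab1 and Rab2 work between the endoplasmic reticulum (ER) and the Golgi, Rab5 on early endosomes, Rab11 on recycling endosomes and Rab7 on late endosomes. In spermatogonia, as in other cells, this traffic carries growth factor receptors and adhesion molecules to and from the surface.

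Several Rab proteins are encoded by pairs or trios of genes whose products are close in sequence, and the results turn on 3 such families. The coding DNA is shown because a read that fits both copies could be split between them in counting. Each stretch is 102 bases of the coding strand around the GTP-binding P-loop, 5′ to 3′, from the GENCODE M21 transcripts of GRCm38. Capitals mark the positions at which the members of a family differ. Rab1a (chr11:20201412-20226856) and Rab1b (chr19:5099207-5106996) differed at 21 of 102 positions, 18 of them at the last position of a codon.
Rab1a: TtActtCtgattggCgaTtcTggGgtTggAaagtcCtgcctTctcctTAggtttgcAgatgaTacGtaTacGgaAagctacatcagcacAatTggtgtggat
Rab1b: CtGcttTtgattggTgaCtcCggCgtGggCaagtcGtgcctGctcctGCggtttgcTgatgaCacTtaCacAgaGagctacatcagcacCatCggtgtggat
At 12 of these last positions Rab1a had A or T where Rab1b had G or C, and the reverse held at 3. GC content of the stretch was 45.1% in Rab1a and 54.9% in Rab1b. The longest run shared by the complete coding sequences was 38 bases.

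Rab11a (chr9:64715300-64737756) and Rab11b (chr17:33742484-33760486) differed at 22 positions, 21 of them at the last position of a codon.
Rab11a: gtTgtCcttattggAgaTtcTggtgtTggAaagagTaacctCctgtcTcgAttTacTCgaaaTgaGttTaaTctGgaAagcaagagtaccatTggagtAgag
Rab11b: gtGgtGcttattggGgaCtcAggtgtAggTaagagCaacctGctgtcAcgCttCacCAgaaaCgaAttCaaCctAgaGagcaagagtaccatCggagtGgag
Their longest shared coding run was 14 bases. The GC content of the stretch was 41.2% and 51.0%.

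The Rab5 trio lies at chr17:53479234-53507678 (Rab5a), chr10:128677170-128696284 (Rab5b) and chr11:100715003-100738215 (Rab5c). Capitals mark the 29 positions at which at least 1 of the 3 differs.
Rab5a: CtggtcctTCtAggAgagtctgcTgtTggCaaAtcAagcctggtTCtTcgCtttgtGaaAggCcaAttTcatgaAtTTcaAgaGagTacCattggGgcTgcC
Rab5b: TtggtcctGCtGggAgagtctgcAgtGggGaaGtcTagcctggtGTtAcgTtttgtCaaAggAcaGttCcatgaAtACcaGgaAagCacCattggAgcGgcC
Rab5c: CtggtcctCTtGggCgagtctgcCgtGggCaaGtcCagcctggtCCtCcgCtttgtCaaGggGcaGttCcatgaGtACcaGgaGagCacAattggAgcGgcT
GC content of the stretch was lowest in Rab5a (48.0%), followed by Rab5b (52.9%) and Rab5c (60.8%). The longest shared coding run was 35 bases for Rab5a and Rab5b and 22 bases for Rab5a and Rab5c. Reads longer than these runs differ between the copies in coding sequence. How the authors counted reads that map to several places, and whether strand was used, is not given in the sources used here. Exons of several tested Rab genes overlap those of a gene on the other strand, among them Rab2b with the predicted gene Gm43766 (2459 bases), Rab24 with Prelid1 (830 bases) and Rab6a with Mrpl48 (409 bases), and without strand the reads of such partners cannot be told apart. On the same strand, exons of Rab43 and Rab4b overlap those of the predicted genes Gm45140 (3980 bases) and Gm21983 (460 bases). Shorter overlaps on the same strand involve Rab18 with AC131796.2 (168 bases), Rab27a with Gm27186 (149 bases) and Rab11a with Gm47308 (107 bases), among others.

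Levels are FPKM-like values, that is fragments per length of transcript and per library total. A gene was tested where at least 3 of the 12 libraries reached 1, which 11360 genes did. Of the 57 Rab genes, 46 passed. The 11 others were Rab3b, Rab3c, Rab17, Rab25, Rab26, Rab33a, Rab36, Rab39, Rab39b, Rab42 and Rab44. Of these, 10 stayed below 1 in all 12 libraries, and the highest value was 1.23, for Rab36 in a 5NC library. The low group holds Rab3b and Rab3c, of regulated exocytosis in neurons and glands, and Rab17 and Rab25, which belong to epithelia.

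Over the 12 libraries 4 Rab genes averaged 100 or more, 27 lay from 10 to 100 and 15 below 10. The highest was Rab7, the late endosome Rab, at 221 on average and from 194 to 239. It was followed by Rab5c (134, range 91.6 to 158). Rab1a (118.4, range 96.05 to 141) and Rab2a (118.2, range 98.4 to 138) came next, and their ranges nearly coincide. The ranges of Rab5c, Rab1a and Rab2a overlap, so their order is not fixed across libraries, while Rab7 lay above all other Rab genes in each of the 12. The next 6 were Rab1b (84.1), Rab18 (77.2), Rab5a (70.5), Rab14 (68.1), Rab11b (66.7) and Rab10 (61.0), again with overlapping ranges. These genes serve the basic routes of every cell. Members of regulated secretion were low: Rab3a averaged 3.85, Rab27a 1.94 and Rab27b 1.37. Rab32, of lysosome-related organelles and mitochondria, was higher, at 36.9. Summed over all 57 genes, the level was 1696.5 ± 18.2 in 3NC, 1800.3 ± 16.8 in 5NC, 1816 ± 4.91 in 8276KD and 1744 ± 27.7 in 8276OV (SD, n = 3).

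**Figure D1:**
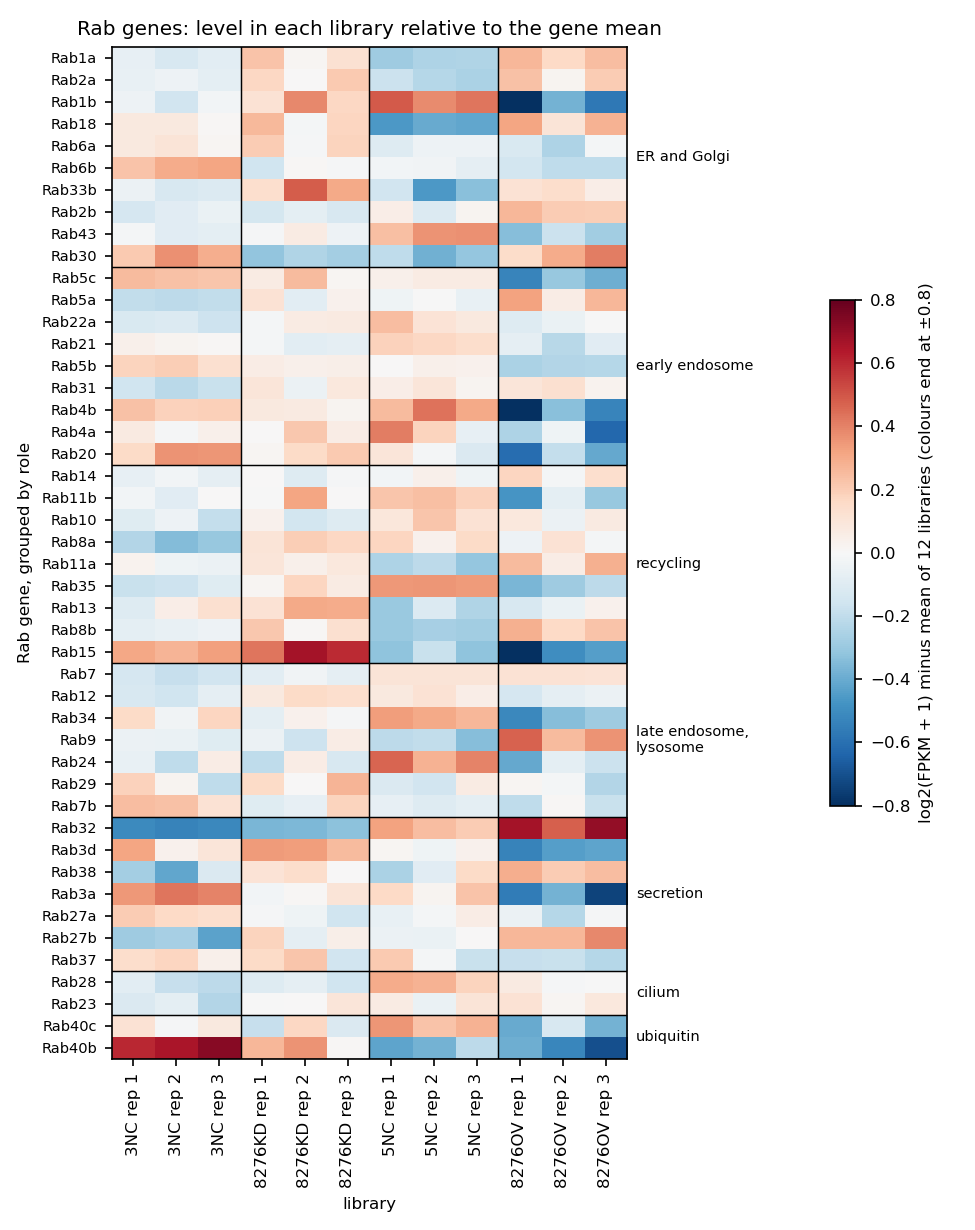
Level of the 46 tested Rab genes (rows, grouped by role) in the 12 libraries (columns), as log2(FPKM + 1) minus the gene's mean over the 12 libraries, blue below and red above it. Rab1a, Rab18 and Rab8b are lowest in the 3 libraries of 5NC, Rab1b, Rab4b and Rab3a are lowest in those of 8276OV, and Rab40b is highest in those of 3NC.

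The depth estimated from the steps between low values was 10741000 to 12422000 fragments a library, and 10929 to 11165 genes reached 1. Pearson's r of log2 levels was 0.997 to 0.999 within groups and 0.979 to 0.995 between them, and no pair of libraries was identical. Germ cell markers were nearly absent: of 19 in the table, 17 stayed below 1 in all 12 libraries and 1 was at 0 throughout. The highest was Etv5, at 7.89. The summed level of these markers was 9.7 to 10.1 in 3NC, 5.0 to 5.7 in 5NC, 6.4 to 7.0 in 8276KD and 3.4 to 4.4 in 8276OV. Of 9 Sertoli cell markers 4 stayed below 1, and Wt1 reached 62.8. The sum of these markers was 62.2 to 64.3 in 3NC, 67.8 to 69.8 in 5NC, 69.5 to 76.0 in 8276KD and 58.8 to 61.1 in 8276OV. All 7 peritubular myoid markers were in the table and 3 stayed below 1; their sum was 77.6 to 82.1 in 3NC, 83.7 to 88.5 in 5NC, 67.5 to 78.7 in 8276KD and 66.6 to 76.5 in 8276OV, and Tagln led with up to 57.73. Macrophage markers summed to 5.4 to 6.9 in 3NC, 2.6 to 3.2 in 5NC, 3.3 to 4.0 in 8276KD and 2.1 to 3.0 in 8276OV, and Leydig and endothelial markers to at most 2.0. The part of these markers in the results below was not tested.

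With overexpression against 5NC, Rab genes moved both ways. Of the 46 tested, 33 were called at an adjusted p under 0.05 (71.7%), where 74.4% of all 11360 genes were. The 33 were 13 higher and 20 lower (28.3% and 43.5%), where 30.3% of all genes were higher and 44.1% lower. The shares of Rab genes are near those of all genes. Values of the 2 groups did not overlap for 14 Rab genes that were higher and 20 that were lower, against 32.0% and 45.6% of all genes. The median log2 fold change was -0.10 for the Rab genes and -0.088 for all genes. Quantile normalization moved the median of all genes to 0.029 and that of the Rab genes to -0.041, called 15 Rab genes higher and 17 lower, and split all called genes into 4428 higher and 3997 lower in place of 3447 and 5005. No called Rab gene changed sign under quantile normalization or equal library sums. Fold changes are on the scale of log2(FPKM + 1), which understates changes of low genes.

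By compartment the counts were as follows, beside 30.3% of all genes higher and 44.1% lower. Of 10 genes of ER and Golgi transport, 6 rose and 3 fell (median 0.30). Of 9 genes of the early endosome 1 rose and 7 fell (median -0.29). The recycling and plasma membrane genes gave 2 rises and 3 falls of 9, those of late endosomes and lysosomes 1 rise and 3 falls of 7, and those of regulated secretion 3 rises and 2 falls of 7. Cilium and ubiquitin ligase genes numbered 2 each, with 1 fall in each. These counts depended on the GC trend and on the control. With the trend removed, ER and Golgi transport had 4 rises and 2 falls (median 0.12), the early endosome 4 falls (median -0.17) and late endosomes 1 and 1. Of all genes, 27.1% were then called higher and 27.2% lower. Against 3NC, ER and Golgi transport had 4 and 4 (median 0.086), the early endosome 2 and 6, and recycling 5 and 3. There 33.5% of all genes were called higher and 41.7% lower. Whether the groups differ from each other was not tested.

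Rab18, which acts at the ER and on lipid droplets, had the largest rise at the pseudocount of 1. With 0.1 added in place of 1, Rab30 was highest, at 0.96, and Rab18 at 0.67. Its level was 54.85, 57.2 and 56.6 in 5NC and 94.6, 81.7 and 92.3 in 8276OV, so every overexpression library lay above every 5NC library. The log2 fold change was 0.66 (SE 0.0675, adjusted p = 1.93e-06). Rab1a, which carries cargo from the ER to the Golgi, was 96.05, 98.8 and 99.0 in 5NC and 141, 131 and 139.7 in 8276OV, again without overlap. It rose by 0.48 (SE 0.0513, adjusted p = 2.50e-06) on the log2 scale. Rab1b, the other Rab1 gene, went the other way. It was 114, 106 and 109.6 in 5NC and 46.15, 62.1 and 54.25 in 8276OV, the lowest levels of the 4 groups, with a log2 fold change of -1.02 (SE 0.0910, adjusted p = 6.90e-07). No other Rab gene fell as far. Rab2a, of Golgi and lysosomal traffic, went from 101 ± 3.01 to 131 ± 10.2 (SD, n = 3; log2 fold change of 0.37 with an SE of 0.0610, adjusted p = 1.02e-04), and its less abundant paralog Rab2b rose too, by 0.23 (SE 0.0566, adjusted p = 0.00201). Rab33b, a Golgi Rab that also binds an autophagy factor, rose by 0.42 (SE 0.0870, adjusted p = 6.44e-04). Rab30, another Golgi Rab, was low throughout: 1.02, 0.780 and 0.880 in 5NC and 1.57, 1.86 and 2.09 in 8276OV, a rise of 0.58 (SE 0.0838, adjusted p = 3.06e-05). Rab43, of the Golgi, fell by 0.59 on the log2 scale (SE 0.0625, adjusted p = 2.64e-06). Rab6b fell by 0.14 (adjusted p = 0.0299), a call that was lost when any of 4 libraries was left out (5NC replicates 1 and 2, 8276OV replicates 2 and 3; adjusted p up to 0.0811), and Rab6a differed by -0.066 (adjusted p = 0.361).

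Among early endosome genes, Rab4b had the largest fall. Rab4 proteins return receptors quickly to the surface. Rab4b was 21.3, 24.35 and 22.1 in 5NC and 9.0, 13.85 and 11.97 in 8276OV, with no overlap and a log2 fold change of -0.92 (SE 0.105, adjusted p = 4.61e-06). Rab4a fell by 0.48 on the log2 scale (adjusted p = 0.00518), with groups that overlap: 15.6, 13.15 and 10.96 against 9.52, 11.2 and 7.10. The 2 genes together went from 35.8 ± 2.42 to 20.9 ± 3.63. Rab5c, the most abundant of the Rab5 trio that drives endosome fusion, was 136, 139 and 139 in 5NC and 91.6, 107 and 101 in 8276OV (log2 fold change of -0.46 with an SE of 0.0624, adjusted p = 1.73e-05). Rab5b was 32.1, 32.96 and 32.9 and 26.7, 27.1 and 27.3, a small fall (log2 fold change of -0.26 with an SE of 0.0400, adjusted p = 4.89e-05). Rab5a was the single member of this group to rise, from 68.5, 69.7 and 67.2 to 87.6, 73.0 and 84.2 (log2 fold change of 0.25 with an SE of 0.0644, adjusted p = 0.00343). The trio as a whole summed to 239 ± 2.46 in 5NC and 208 ± 3.45 in 8276OV. Rab20, Rab21 and Rab22a, which act in phagosome maturation, integrin uptake and endosomal sorting, fell by 0.39, 0.29 and 0.20 on the log2 scale, and Rab31 differed by 0.029 (adjusted p = 0.613).

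In the recycling group the Rab11 and Rab8 pairs parted. Rab11a, the general recycling endosome Rab, was 39.8, 40.9 and 38.05 in 5NC and 56.7, 49.5 and 58.0 in 8276OV (log2 fold change of 0.45 with an SE of 0.0569, adjusted p = 9.60e-06). Rab11b was 76.9, 78.0 and 74.9 and 47.3, 62.5 and 53.2 (log2 fold change of -0.50 with an SE of 0.0929, adjusted p = 2.75e-04). Neither pair of groups overlaps, and the signs are opposite. Rab8b, of surface delivery, rose from 13.5, 13.8 and 13.7 to 20.7, 18.9 and 19.9 (log2 fold change of 0.50 with an SE of 0.0568, adjusted p = 4.11e-06), while Rab8a differed by -0.099 (adjusted p = 0.116). Rab35, which works in fast recycling and cell division, was 50.3, 50.5 and 50.05 in 5NC and 30.4, 32.2 and 33.98 in 8276OV, a fall with a log2 fold change of -0.63 (SE 0.0529, adjusted p = 4.61e-07). Rab15 fell by 0.32 (adjusted p = 0.0115), but without 8276OV replicate 1 its adjusted p was 0.0622. Rab10, Rab13 and Rab14, of transport to the surface, did not pass the test (-0.11, 0.16 and 0.10, adjusted p = 0.127, 0.0622 and 0.0936).

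Of the late endosome genes, Rab9, which returns mannose 6-phosphate receptors to the Golgi, rose from 30.4, 30.7 and 27.65 to 49.3, 42.1 and 45.55 (log2 fold change of 0.61 with an SE of 0.0675, adjusted p = 3.58e-06). Rab7, the most abundant Rab, was 236.5, 237 and 237 in 5NC and 239, 239 and 238 in 8276OV. The groups all but meet, and the log2 fold change was 0.011 with an SE of 0.0327 (adjusted p = 0.762). Rab34, of lysosome positioning and cilia, fell by 0.68 (adjusted p = 1.30e-06), Rab24, of autophagy, by 0.60 (adjusted p = 7.42e-05) and Rab12 by 0.17 (adjusted p = 0.00386). In the secretion group Rab32 was 44.1, 41.7 and 40.4 in 5NC and 56.1, 49.2 and 57.75 in 8276OV, a rise of 0.36 (SE 0.0572, adjusted p = 7.28e-05). Rab38, its partner in melanosome biogenesis, rose by 0.31 (adjusted p = 0.0116), a call lost without 5NC replicate 1 (adjusted p = 0.0674). Rab27b, of exosome release, rose by 0.34 (adjusted p = 0.00193). Rab3a, of synaptic-type vesicles, fell from 4.27, 3.79 and 4.51 to 2.20, 2.63 and 1.82 (log2 fold change of -0.70 with an SE of 0.0880, adjusted p = 1.04e-05) and Rab3d by 0.47 (adjusted p = 5.45e-05). Rab28, a ciliary Rab, fell by 0.23 and Rab40c, a ubiquitin ligase adaptor, by 0.59 (adjusted p = 8.20e-04 and 6.24e-05).

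A ratio of paralogs taken within a library does not depend on the library total. The level of Rab1a over that of Rab1b was 0.839 to 0.934 in 5NC and 2.11 to 3.06 in 8276OV, so the more abundant of the 2 genes changed from Rab1b to Rab1a. In 3NC it was 1.38 to 1.48 and in 8276KD 1.12 to 1.57. The sum of both was 208 ± 3.01 in 5NC and 192 ± 3.65 in 8276OV (SD, n = 3), a smaller difference than that of either gene. Rab11a over Rab11b was 0.508 to 0.525 in 5NC and 0.792 to 1.199 in 8276OV, and the sum of the pair went from 116 ± 2.99 to 109 ± 4.41. In 8276OV the more abundant of this pair was thus Rab11a in some libraries and Rab11b in others. Rab5a over Rab5c was 0.484 to 0.503 in 5NC and 0.682 to 0.956 in 8276OV, here with Rab5c the more abundant in all libraries. Rab8b over Rab8a was 0.251 to 0.283 in 5NC and 0.365 to 0.447 in 8276OV. In these 4 pairs every 8276OV ratio exceeded every 5NC ratio. For the first 3 this follows from the levels above, where the members did not overlap between groups and moved in opposite directions. Their ratios are therefore no further support. Against 3NC every 8276OV ratio was likewise higher for the first 3, while Rab8b over Rab8a was 0.394 to 0.430 in 3NC and overlapped 8276OV. In 3 other pairs the ratios of 5NC and 8276OV overlapped: Rab2a over Rab2b (10.1 to 11.4 and 10.7 to 12.1), Rab4a over Rab4b (0.496 to 0.732 and 0.593 to 1.06) and Rab6a over Rab6b (3.002 to 3.25 and 3.09 to 3.64). With 3 libraries in each group, a 2-sided exact permutation test cannot reach a p under 0.1. The ratios were not tested and carry no p-value.

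**Figure D2:**
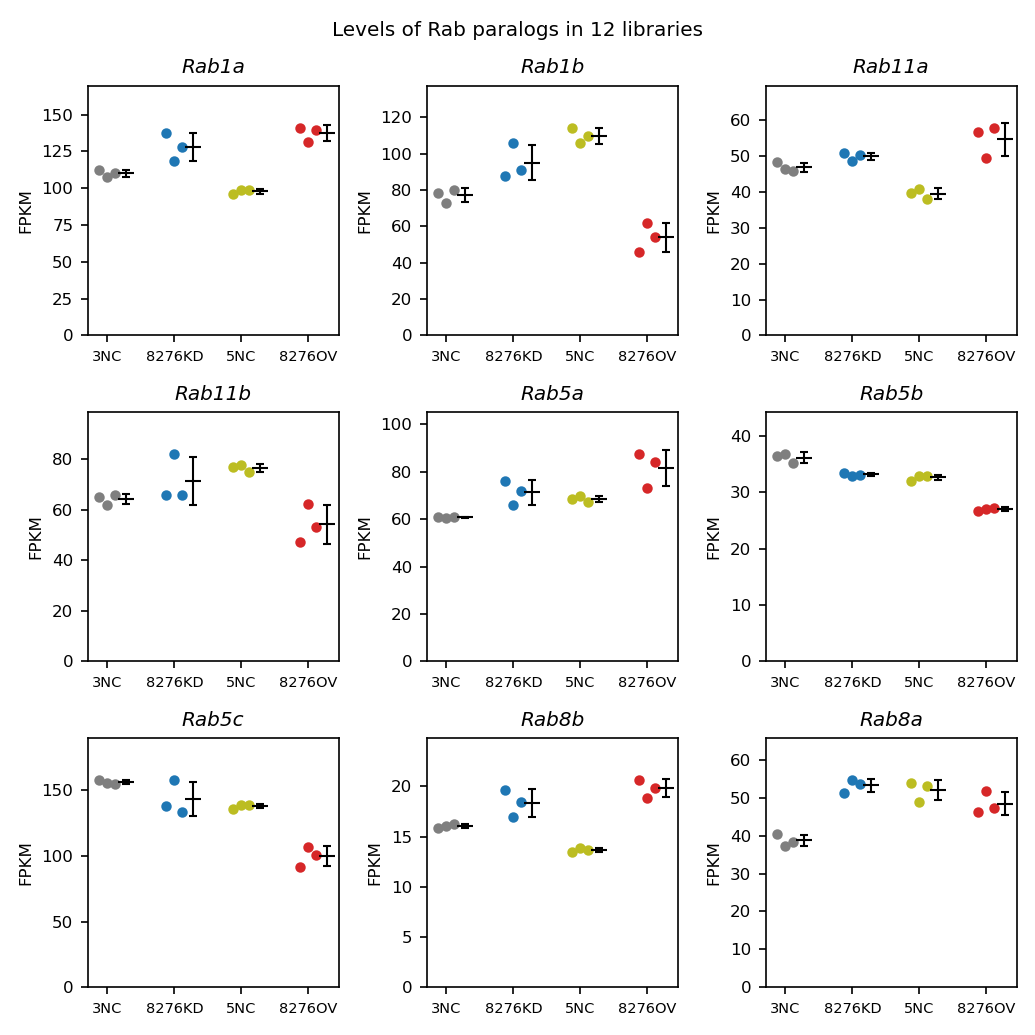
Level in FPKM (vertical axes, from 0) of 9 Rab paralogs in each of the 12 libraries (points), with the mean and SD of the 3 libraries beside each group. In 8276OV Rab1a, Rab11a, Rab5a and Rab8b lie above 5NC and Rab1b, Rab11b, Rab5b and Rab5c below it.

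In each of the 4 pairs with separate ratios, the member with the higher fold change under overexpression is the one with the lower GC content of its transcript: 42.0% for Rab1a and 58.9% for Rab1b, 39.5% and 48.1% for Rab11a and Rab11b, 42.3% and 54.7% for Rab5a and Rab5c, and 40.6% and 49.4% for Rab8b and Rab8a. The 3 pairs with overlapping ratios differ in GC content too: 44.4% and 46.9% for Rab2a and Rab2b, 53.7% and 59.2% for Rab4a and Rab4b, and 44.6% and 51.4% for Rab6a and Rab6b. Across the 46 Rab genes, Spearman's rho of the fold change with GC content was -0.821, and across 11197 genes of the whole table it was -0.806. These are correlations across genes of the same libraries, which are not independent replicates. Rab genes that rose had a GC content of 37.9% to 47.7% (median 42.3%), and those that fell 42.7% to 59.5% (median 54.5%). The slope of level on GC content differed between libraries of the group. Per 10 points of GC content it was -0.4998, -0.245 and -0.425 on the log2 scale over the Rab genes of the 3 overexpression libraries, and -0.477, -0.244 and -0.365 over all genes. In 5NC the Rab slopes were 0.213 to 0.241. Replicate 2 of 8276OV, with the shallowest slope of its group, was the library of its group closest to the 5NC mean for 20 of the 33 called Rab genes, replicate 1 for 4 and replicate 3 for 9. The part of the slopes in the fold changes was not tested by this count. The same count over all called genes was not made, so it cannot be read as particular to the Rab genes.

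When a smooth trend on GC content was removed from each library, 8 Rab genes were called higher and 15 lower, where 27.1% and 27.2% of all genes were. Rab9 was at 0.42 (adjusted p = 4.37e-06), Rab18 at 0.29 (adjusted p = 1.37e-06), Rab32 at 0.27 (adjusted p = 2.64e-04) and Rab1a at 0.17 (adjusted p = 3.77e-04), all still higher. Rab1b, at -0.39 (adjusted p = 1.39e-06), and Rab35, at -0.28 (adjusted p = 1.94e-05), were still lower. The value of Rab11b was -0.56 (adjusted p = 4.06e-04), near its uncorrected one, and Rab21 went to -0.58 (adjusted p = 1.14e-08). Other calls ended: Rab11a was at 0.076 (adjusted p = 0.175), Rab5c at -0.082 (adjusted p = 0.0570), Rab34 at -0.023 (adjusted p = 0.740), Rab24 at -0.021 (adjusted p = 0.776), Rab40c at -0.066 (adjusted p = 0.339), Rab43 at -0.096 (adjusted p = 0.141) and Rab30 at 0.17 (adjusted p = 0.200). Signs turned for Rab5a, at -0.059 (adjusted p = 0.171), Rab27b, at -0.079 (adjusted p = 0.405), Rab20, at 0.085 (adjusted p = 0.383), Rab15, at 0.10 (adjusted p = 0.312), and Rab6b, at 0.0053 (adjusted p = 0.934), none of them called. The sign of Rab14, which was not called before the trend was removed, turned as well, and Rab14 was then called lower. Other genes were newly called too, so the counts are not only of calls that were kept. The recycling group still had 2 genes higher although Rab11a had lost its call, and regulated secretion had 3 lower in place of 2. What sets the slopes was not tested.

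**Figure D3:**
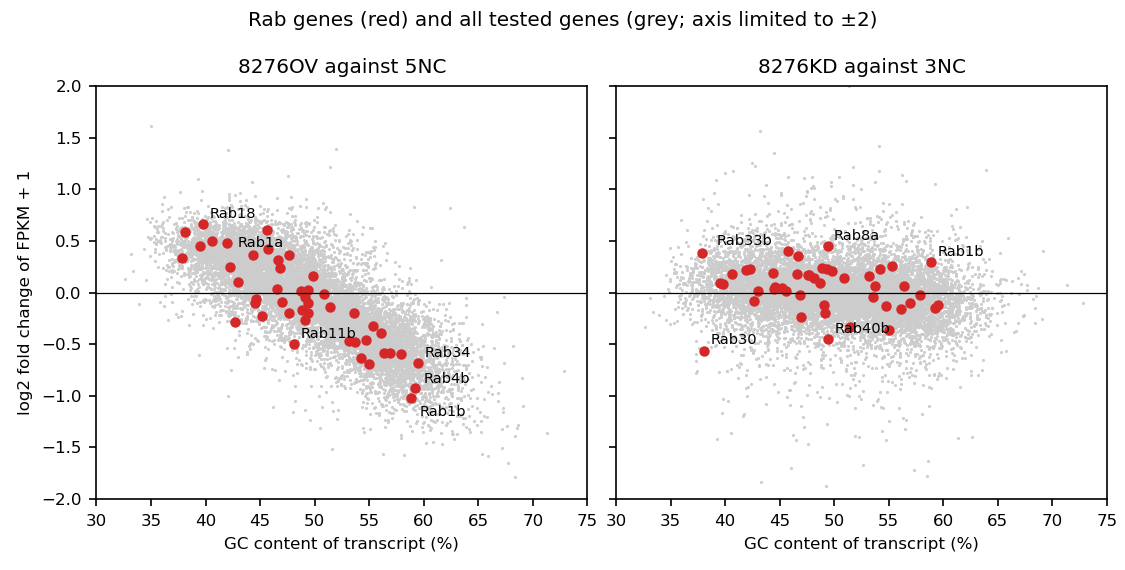
Log2 fold change of FPKM + 1 (vertical axes, limited to ±2) against GC content of the transcript in percent (horizontal axes) for the Rab genes (red) and all tested genes (grey), with overexpression on the left and knockdown on the right. On the left the Rab genes follow the slope of all genes, from Rab18 at the upper left to Rab1b at the lower right, and on the right the slope is weak (rho -0.213 over the Rab genes).

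The 5NC group was not interchangeable with 3NC, and some overexpression values depended on it. Against 3NC, which shares the same 8276OV libraries with the first comparison, 18 Rab genes were higher and 21 lower (all genes 33.5% and 41.7%). Of them 11 were again called higher and 16 again lower (23.9% and 34.8%), where 22.0% and 32.2% of all genes kept a call of the same sign. Rab18 was at 0.18 (adjusted p = 0.0300), since its 3NC level (80.2, 80.3 and 76.6) was far above that of 5NC. Rab30 was at -0.0044 (adjusted p = 0.965) and Rab33b at 0.20 (adjusted p = 0.0527), so neither was called. Rab32 went to 1.14 (adjusted p = 1.69e-09), the largest rise, and Rab1b to -0.51 (adjusted p = 1.76e-04). Rab28 was called lower against 5NC and higher against 3NC, at 0.18 (adjusted p = 0.00504). The largest fall against 3NC was that of Rab40b, -1.199 (adjusted p = 1.96e-07), although it differed from 5NC by -0.20 (adjusted p = 0.0830). With 3NC as control and the GC trend removed, 12 Rab genes were higher and 18 lower (all genes 33.3% and 33.6%). Rab1b was then at 0.043 (adjusted p = 0.358) and Rab18 at -0.18 (adjusted p = 6.48e-05), so the directions of both turned.

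With knockdown against 3NC, more Rab genes rose than fell. Of the 46 tested, 23 were called, where 39.4% of all genes were. They were 17 higher and 6 lower (37.0% and 13.0%), where 20.0% of all genes were higher and 19.5% lower. The groups did not overlap for 18 Rab genes that were higher and 8 that were lower, against 24.6% and 25.0% of all genes. The median log2 fold change was 0.075 for the Rab genes and -0.0048 for all genes. The count of higher genes depended on single libraries: it was 10 without 3NC replicate 2, 11 without 3NC replicate 3 and 10 without 8276KD replicate 3. Rises were spread over the groups, with 4 of 10 genes of ER and Golgi transport, 3 of 9 of the early endosome, 4 of 9 of recycling, 2 of 7 of late endosomes and 3 of 7 of secretion. Falls numbered 2 in ER and Golgi transport, 1 in the early endosome and 2 in secretion, and cilium and ubiquitin ligase genes gave 1 rise and 1 fall.

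Rab8a, of exocytosis and cilium formation, had the largest rise at the pseudocount of 1. With 0.1 added instead, the low gene Rab27b was higher, at 0.66, and Rab8a at 0.46. It was 40.4, 37.3 and 38.4 in 3NC and 51.3, 54.7 and 53.6 in 8276KD, without overlap (log2 fold change of 0.45 with an SE of 0.0550, adjusted p = 3.23e-05). The 5NC libraries were at 53.75, 48.9 and 53.1, so 3NC was the low group and knockdown differed from 5NC by 0.037 (adjusted p = 0.596). Rab33b was 13.4, 12.7 and 12.8 in 3NC and 15.4, 19.8 and 17.4 in 8276KD (log2 fold change of 0.40 with an SE of 0.0870, adjusted p = 0.00256), and it lay above 5NC as well, at 0.62 (adjusted p = 4.85e-05). Rab27b rose by 0.38 (SE 0.0810, adjusted p = 0.00243), Rab38 by 0.35 (SE 0.0991, adjusted p = 0.0121), Rab12 by 0.24 (SE 0.0440, adjusted p = 7.99e-04), Rab31 by 0.23 (SE 0.04997, adjusted p = 0.00257) and Rab35 by 0.23 (SE 0.0529, adjusted p = 0.00378). Rab1a was 112, 107 and 111 in 3NC and 138, 119 and 128 in 8276KD (log2 fold change of 0.22 with an SE of 0.0513, adjusted p = 0.00470). Rab1b was 78.7, 72.9 and 80.0 and 87.9, 106 and 91.2 (log2 fold change of 0.29 with an SE of 0.0910, adjusted p = 0.0210), and its replicate 2 stands above the other 2 knockdown libraries. That library also stands apart in its slope on GC content, 0.155 over the Rab genes against -0.023 and 0.032 in replicates 1 and 3. The call of Rab1b was lost without 3NC replicate 2 or 8276KD replicate 2 (adjusted p up to 0.0805). Rab38 lost its call without 3NC replicate 2 (adjusted p = 0.0602). Rab5a rose by 0.22 (SE 0.0644, adjusted p = 0.0139), lost without 8276KD replicate 1 (adjusted p = 0.0627).

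The falls were led by Rab30, 1.69, 2.0 and 1.84 in 3NC and 0.870, 0.970 and 0.930 in 8276KD (log2 fold change of -0.56 with an SE of 0.0838, adjusted p = 1.63e-04). The groups lay far apart. Rab40b, a ubiquitin ligase adaptor, fell from 6.57, 6.83 and 7.24 to 4.98, 5.39 and 4.01 (log2 fold change of -0.45 with an SE of 0.1002, adjusted p = 0.00311). Rab3a fell as well, with a log2 fold change of -0.36 (SE 0.0880, adjusted p = 0.00552), and so did Rab6b, at -0.33 (SE 0.0549, adjusted p = 3.62e-04). Rab27a and Rab5b had small falls, -0.23 and -0.12, whose calls were lost without 3NC replicates 1 or 2 or 8276KD replicate 3 (adjusted p up to 0.107 and 0.102), and that of Rab5b also without 8276KD replicate 1. Of the smaller rises, that of Rab22a was lost without 3NC replicate 3 or 8276KD replicate 3 (adjusted p up to 0.0657). The rises of Rab2a, Rab8b and Rab32 were each lost without any library of the comparison other than 8276KD replicate 2 (adjusted p up to 0.122, 0.110 and 0.0905), and that of Rab7 without any other than 8276KD replicate 1 (up to 0.125). Rab13 lost its call without 3NC replicates 1 or 2 or 8276KD replicates 2 or 3 (adjusted p up to 0.173), and Rab23 without 3NC replicates 1 or 3 or 8276KD replicates 1 or 3 (up to 0.175). Removing the GC trend moved the knockdown values little: 20 Rab genes were then called higher and 7 lower, where 25.5% and 23.5% of all genes were, and Rab1b was at 0.39 (adjusted p = 1.56e-06).

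Most of these calls did not hold against the other control group. Against 5NC, with the same knockdown libraries, 12 Rab genes were higher and 11 lower (all genes 24.7% and 30.5%), and with the GC trend removed 15 and 11 (all genes 31.8% and 29.5%). In all, 5 Rab genes were called higher against both 3NC and 5NC (10.9%, where 8.71% of all genes were), namely Rab1a, Rab2a, Rab8b, Rab13 and Rab33b. No Rab gene was called lower against both by limma, and none was at an unadjusted p under 0.05, where 8.43% of all genes were called so. Rab7, Rab32, Rab35 and Rab40b were called with opposite signs against 3NC and 5NC. Rab32 is the clearest case: it was 24.3, 23.8 and 24.2 in 3NC, 26.96, 27.1 and 27.7 in 8276KD and 44.1, 41.7 and 40.4 in 5NC, so knockdown was higher than 3NC by 0.17 (adjusted p = 0.0309) and lower than 5NC, at -0.61 (adjusted p = 1.34e-06). Rab40b was 2.72, 2.83 and 3.31 in 5NC, below knockdown. For Rab33b all 3 knockdown libraries lay above all 6 control libraries. For Rab1a, Rab2a and Rab8b the same holds, and for Rab13 knockdown replicate 1 (21.1) lay just below 3NC replicate 3 (21.3). These 5 genes were picked by their calls against both controls, so this separation is no further support. The share of all genes that lie so was not counted.

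**Figure D4:**
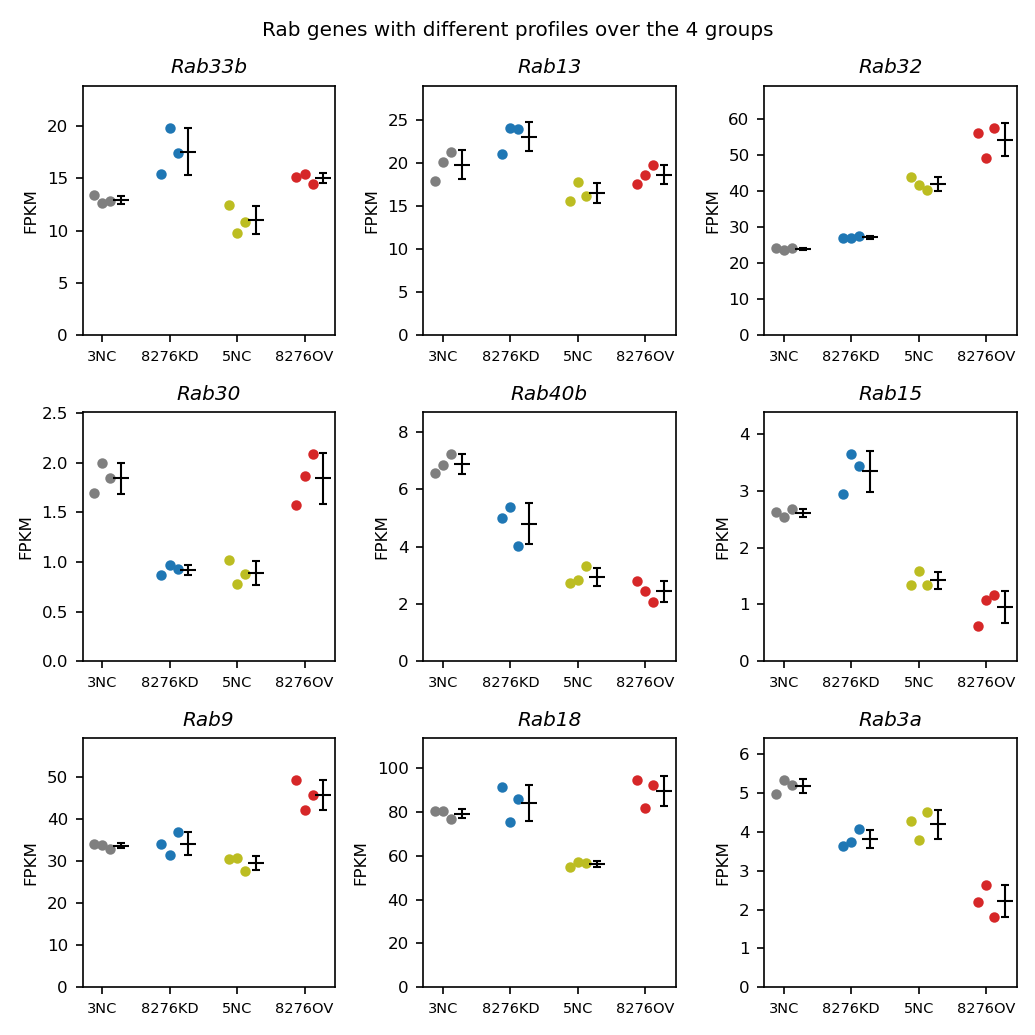
Level in FPKM (vertical axes, from 0) of 9 Rab genes in each of the 12 libraries (points), with the mean and SD of the 3 libraries beside each group. Rab33b lies above both control groups in 8276KD, Rab32 is low in 3NC and 8276KD and high in 5NC and 8276OV, Rab30 is low in 5NC and 8276KD and high in 3NC and 8276OV, and Rab3a is lowest in 8276OV.

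Between the control groups themselves, 19 Rab genes were higher in 5NC than in 3NC and 17 lower, 36 of 46 in all (78.3%), where 30.6% of all genes were higher, 25.9% lower and 56.5% called. The count of lower genes was 11 with the library sums made equal, 11 without 3NC replicate 1 and 10 without 3NC replicate 3. The groups did not overlap for 20 Rab genes that were higher and 19 that were lower, where 37.6% and 31.9% of all genes did not. Rab32 had the largest positive value, 0.78 (SE 0.0572, adjusted p = 9.23e-08), followed by Rab1b, 0.51 (SE 0.0910, adjusted p = 3.57e-04), Rab35, 0.49 (SE 0.0529, adjusted p = 3.72e-06), Rab24, 0.45 (SE 0.0956, adjusted p = 0.00134), and Rab8a, 0.41 (SE 0.0550, adjusted p = 2.65e-05). Rab40b was lower by the most, -0.997 (SE 0.1002, adjusted p = 1.90e-06). Rab30 (log2 fold change of -0.59 with an SE of 0.0838, adjusted p = 5.02e-05), Rab15 (log2 fold change of -0.58 with an SE of 0.102, adjusted p = 3.03e-04), Rab18 (log2 fold change of -0.48 with an SE of 0.0675, adjusted p = 4.09e-05) and Rab6b (log2 fold change of -0.32 with an SE of 0.0549, adjusted p = 2.24e-04) were next. Rab7 was 201, 194 and 198 in 3NC and 236.5, 237 and 237 in 5NC, higher by 0.26 (SE 0.0327, adjusted p = 1.68e-05). Spearman's rho of these differences with GC content was 0.152 over the 46 Rab genes and 0.111 over all genes.

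**Figure D5:**
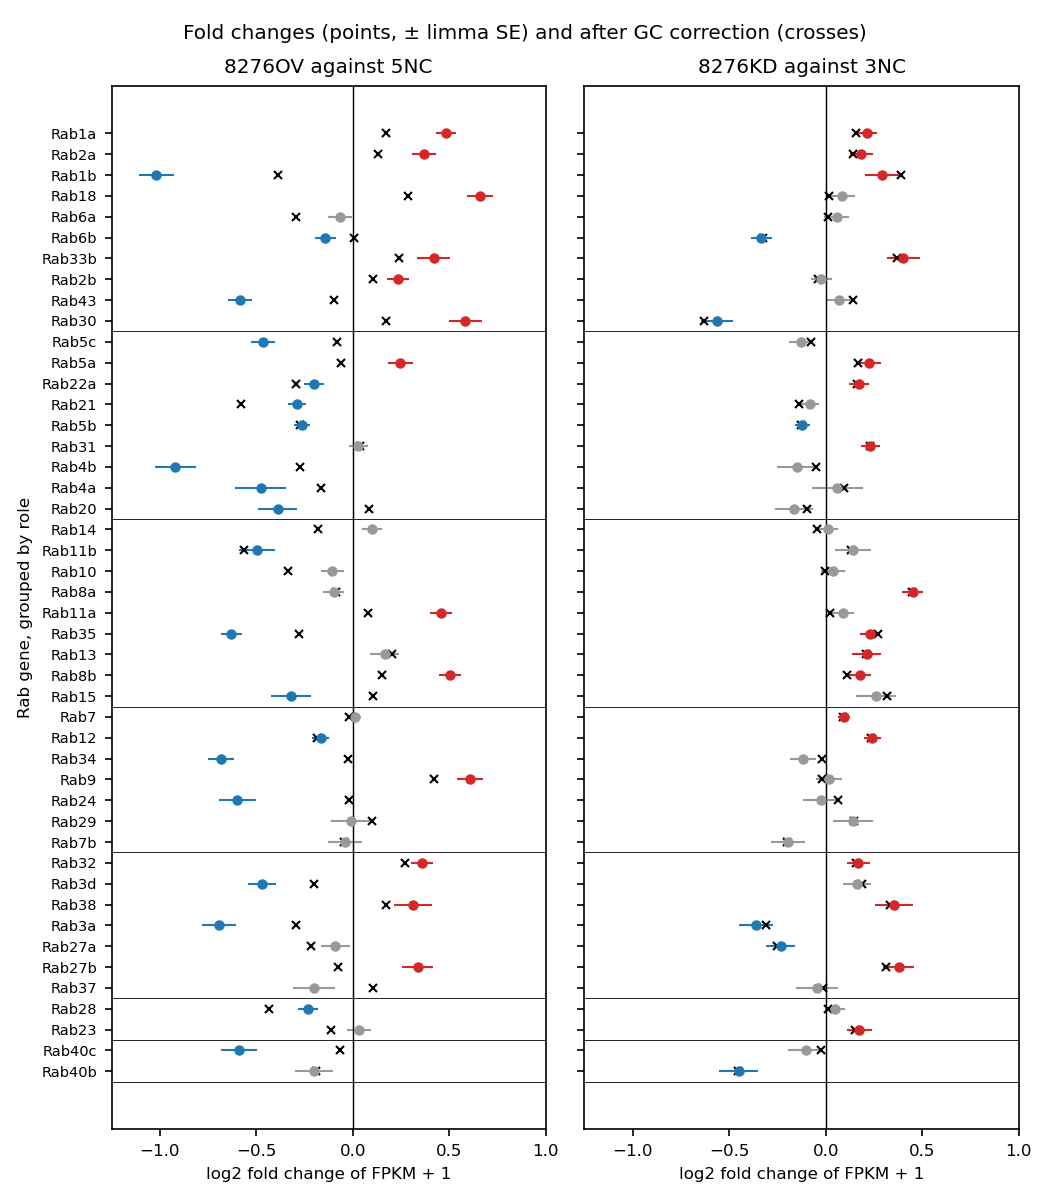
Log2 fold change of FPKM + 1 (horizontal axes) of the 46 tested Rab genes, grouped by role, with overexpression against 5NC on the left and knockdown against 3NC on the right. Points are red where called higher, blue where called lower and grey otherwise, with bars of 1 limma SE, and crosses are the values after removal of the GC trend; on the left Rab1b moves from -1.02 to -0.39, and on the right points and crosses nearly coincide.

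The overexpression and knockdown effects use different controls, and their difference was tested directly. For 28 of the 46 Rab genes it passed the threshold (60.9%, where 60.6% of all genes did), 8 with a more positive and 20 with a more negative overexpression effect (all genes 24.5% and 36.2%). Rab1b had the largest difference at the pseudocount of 1, -1.31 (SE 0.129, adjusted p = 5.05e-06): it fell with overexpression and rose with knockdown. With 0.1 added instead, Rab30 was larger (1.89, and Rab1b -1.33). With 8276OV set directly against 8276KD, Rab15 was lowest, at -1.16, and Rab1b was at -0.81. With knockdown set against 5NC, Rab1b was at -0.21 (adjusted p = 0.0621). Rab35, -0.86 (SE 0.0748, adjusted p = 2.16e-06), had the same pair of signs, as had Rab12 and Rab22a, which makes 4 genes (8.7% of the tested Rab genes, and 5.49% of all genes). With knockdown set against 5NC, however, Rab35 was called lower, and Rab12 and Rab22a were not called. Rab30 was the single Rab gene to rise with overexpression and fall with knockdown (3.30% of all genes did), with a difference of 1.15 (SE 0.119, adjusted p = 7.31e-06). Against 3NC, however, overexpression left Rab30 at -0.0044. Rab4b (-0.77), Rab43 (-0.65) and Rab11b (-0.64) were also more negative with overexpression, and Rab9 (0.59), Rab18 (0.58), Rab11a (0.36) and Rab8b (0.33) more positive. After removal of the GC trend 4 differences were positive and 19 negative past the threshold (all genes 24.8% for either sign), and Rab1b was at -0.78 (adjusted p = 8.47e-08), Rab30 at 0.80 (adjusted p = 6.28e-04) and Rab11a at 0.053 (adjusted p = 0.525).

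Other genes had the same sign in both, 11 Rab genes in all, where 20.4% of all genes did. Called higher with both manipulations were 8 Rab genes, Rab1a, Rab2a, Rab5a, Rab8b, Rab27b, Rab32, Rab33b and Rab38, which are 8 of the 13 risers of overexpression and 8 of the 17 of knockdown, and 9.35% of all genes were called so. Called lower with both were Rab3a, Rab5b and Rab6b, 3 of the 46 tested (3 of 20 that fell with overexpression and 3 of 6 with knockdown). Of all 11360 genes, 2313 had the same sign in both, of which 1062 were higher and the rest lower. After removal of the GC trend Rab5a, Rab27b, Rab38 and Rab6b were no longer called with overexpression. For Rab33b the difference of effects was 0.015 (SE 0.123, adjusted p = 0.920), and for Rab38 -0.044 (SE 0.140, adjusted p = 0.797). A miss of the threshold does not show that the effects are equal.

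The machinery that acts on Rab proteins was followed with 4 lists. All 9 genes of prenylation, escort and membrane extraction were tested and all 9 were called with overexpression, where 74.4% of all genes were. Of these 6 rose and 3 fell, where 30.3% of all genes rose and 44.1% fell. The list's median was 0.36, where that of all genes was -0.088. After removal of the GC trend 3 of them were called higher, 2 lower and 4 in neither direction, and the median was 0.021. Of all genes, 27.1% were then called higher and 27.2% lower. Rabac1, which encodes a prenylated Rab acceptor of the Golgi, fell from 81.1 ± 3.67 to 33.45 ± 4.52 (log2 fold change of -1.26 with an SE of 0.0830, adjusted p = 9.50e-08), and after removal of the GC trend its value was -0.58. Rabggtb, the catalytic subunit of the Rab geranylgeranyl transferase, rose from 47.1 ± 2.95 to 74.5 ± 2.504 (log2 fold change of 0.65 with an SE of 0.0517, adjusted p = 3.13e-07). Against 3NC it was at 0.16 (adjusted p = 0.0117). Arl6ip5, related to Rabac1, rose by 0.44 (SE 0.0390, adjusted p = 6.55e-07), but it was 0.0037 against 3NC. Gdi2, which extracts GDP-bound Rab proteins from membranes and was the most abundant of the list, rose with overexpression from 220.0 ± 5.59 to 282 ± 21.0 (log2 fold change of 0.36 with an SE of 0.0601, adjusted p = 1.18e-04), and after removal of the GC trend was at -0.0095. With knockdown none of the 9 rose by limma, nor was any higher at an unadjusted p under 0.05, and 2 fell. Of all genes, 20.0% were called higher and 19.5% lower with knockdown, and 9 genes are few to set beside these shares. The 2 falls had log2 fold changes of -0.27 (SE 0.0830, adjusted p = 0.0194) for Rabac1 and -0.12 (SE 0.0390, adjusted p = 0.0260) for Arl6ip5. Rabac1 lost its call without 3NC replicate 3 or 8276KD replicates 1 or 3 (adjusted p up to 0.0781), and Arl6ip5 without any library of the comparison other than 8276KD replicate 3 (up to 0.0778). Against 5NC, knockdown left Arl6ip5 higher, at 0.32 (adjusted p = 1.74e-05).

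Of 43 GEF genes listed 39 were tested. With overexpression 9 rose and 19 fell, where 30.3% of all genes rose and 44.1% fell, and with knockdown 4 rose and 4 fell, where 20.0% and 19.5% of all genes did. The median with overexpression was -0.19, and -0.0099 after removal of the GC trend, with 4 higher and 10 lower. Of all genes, 27.1% were higher and 27.2% lower after that removal. Dennd1a, a GEF of Rab35, fell from 5.79 ± 0.395 to 3.13 ± 0.307 with overexpression (log2 fold change of -0.72 with an SE of 0.0803, adjusted p = 3.71e-06; -0.24 after removal of the trend) and from 5.06 ± 0.276 to 3.63 ± 0.414 with knockdown (log2 fold change of -0.39 with an SE of 0.0803, adjusted p = 0.00184). Hps1, whose complex activates Rab32 and Rab38, fell with overexpression (log2 fold change of -0.76 with an SE of 0.0885, adjusted p = 5.34e-06) but was at -0.12 against 3NC (adjusted p = 0.248). Dennd2a, with the smallest p of the list, and Sbf1 fell as well, with log2 fold changes of -0.51 and -0.66. After removal of the GC trend they were at -0.073 and -0.034 (adjusted p = 0.257 and 0.546), so both calls ended. Of 39 GAP genes 35 were tested, with 9 rises and 19 falls under overexpression and 6 and 10 under knockdown (shares of all genes as for the GEF list). The median with overexpression was -0.33, and -0.064 after removal of the GC trend, with 6 higher and 12 lower (27.1% and 27.2% of all genes). Tbc1d20, a GAP of Rab1 and Rab18, fell from 46.1 ± 1.18 to 32.9 ± 2.003 with overexpression (log2 fold change of -0.47 with an SE of 0.0499, adjusted p = 2.36e-06), and Rabgap1 rose (log2 fold change of 0.47 with an SE of 0.0493, adjusted p = 2.11e-06). After removal of the trend they were at -0.21 and 0.24, both still called. Tbc1d9b, with the smallest p of the list, and Tbc1d10b fell too, with log2 fold changes of -0.77 and -0.65. Tbc1d9b was still called after removal of the trend, at -0.35 (adjusted p = 7.06e-06), while Tbc1d10b was at -0.064 (adjusted p = 0.188). Tbc1d31 fell with knockdown from 32.5 ± 0.815 to 26.3 ± 1.75 (log2 fold change of -0.30 with an SE of 0.0522, adjusted p = 5.96e-04).

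Of 60 effector genes 49 were tested, with 13 rises and 18 falls under overexpression and 5 and 10 under knockdown, again beside 30.3% and 44.1%, and 20.0% and 19.5%, of all genes. The median with overexpression was -0.079, and it turned to 0.021 after removal of the GC trend, with 9 higher and 13 lower. Of all genes, 27.1% were higher and 27.2% lower after that removal. Rilpl1, a relative of the Rab7 effector RILP, fell with overexpression from 18.1 ± 1.10 to 10.45 ± 0.495 (log2 fold change of -0.74 with an SE of 0.0627, adjusted p = 5.06e-07), but after removal of the GC trend it was at -0.12 (adjusted p = 0.190). Rabep2, of the rabaptin family that binds Rab4 and Rab5, fell as well (log2 fold change of -0.81 with an SE of 0.0886, adjusted p = 3.29e-06), and was at -0.15 after removal of the trend (adjusted p = 0.0485). Rabep1, the first rabaptin, rose with knockdown from 20.5 ± 0.630 to 27.8 ± 2.49 (log2 fold change of 0.42 with an SE of 0.0650, adjusted p = 2.28e-04) and was at 0.035 against 5NC (adjusted p = 0.669). Exoc6, an exocyst subunit bound by Rab11, also rose (log2 fold change of 0.41 with an SE of 0.0659, adjusted p = 2.84e-04), and was likewise at 0.042 against 5NC (adjusted p = 0.612). Of the Rab11 family interactors, Rab11fip1 fell and Rab11fip2 rose with knockdown (log2 fold changes -0.34 and 0.38, adjusted p = 9.78e-04 and 0.00103). Against 5NC both turned, to 0.057 and -0.45 (adjusted p = 0.479 and 1.70e-04). The counts for knockdown in these lists rest on few calls and moved with single libraries, as given with the other processing settings.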

How the data were processed

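Total RNA of 12 libraries was analysed, 3 in each of 4 groups. The authors deposited 1 table of 17576 genes, whose values were read as FPKM from the values themselves (whether they are TPM was not settled); mm10 is the genome build per the submitters' processing notes. For aligner, counting, annotation and strand the sources used here give nothing, so the depth stated is an estimate. Genes at 1 or more in at least 3 libraries were kept, log2(FPKM + 1) was fitted with limma 3.58.1 (R 4.3.3) in 1 model of the 4 groups (trend and robust options), and p-values were Benjamini-Hochberg adjusted over all 11360 genes, with calls at 0.05. The fit was tested on simulated data. The GC correction subtracted from each library a natural spline (5 df) of its departure from the 12-library mean on transcript GC content, for 11197 genes. Coordinates are RefSeq GRCm38.p6, and all 57 Rab genes matched; sequences and GC content are from GENCODE M21. The members and lists were chosen with earlier results of these data known. Full statistics follow a rule: up to 10 called rises and falls for each manipulation, 5 for the other contrasts, paralogs, and up to 4 called genes of each regulator list by smallest p. Rab genes below the filter were not tested. Alternatives were a pseudocount of 0.1, no filter, quantile normalization, equal sums, GC correction, a replicate block, plain eBayes, other controls and leaving out each library.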

Additional observations from a re-analysis of the deposited data

How the results depend on the processing

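Direction and call were recomputed for each named gene under each alternative. Under a pseudocount of 0.1, no filter on low values, quantile normalization, equal library sums, the eBayes step without its trend and robust options, the replicate block and each left-out library, no called Rab gene or named regulator gene changed direction; the cause of each change below was not tested. With 1 library left out, the range was 12 to 14 Rab genes higher and 19 to 21 lower with overexpression, 10 to 15 and 4 to 8 with knockdown, 14 to 16 and 10 to 15 between the controls, and 7 to 10 and 16 to 21 for the difference of effects. Same-numbered libraries did not deviate together across all groups: the 18 correlations ran from -0.254 to 0.59, with 2 over 0.1, both between 8276KD and 8276OV (0.467 for number 1 and 0.59 for number 2, the highest of all; 0.029 for number 3), and the 36 between other numbers from -0.602 to 0.359, with 11 over 0.1, and not every library correlated best with its own number. With the replicate block the counts were 14 and 20 with overexpression, 16 and 6 with knockdown, 18 and 16 between the controls, and 7 and 19 for the difference of effects. After GC correction 8 Rab genes were higher with overexpression, and 7 with the block as well; for the difference of effects 4 were higher under both. Against the other control, with or without GC correction, 11 Rab genes were lower with knockdown. Equal library sums left 11 lower in 5NC than in 3NC. Quantile normalization split the calls of all genes for the difference of effects into 3542 higher and 3230 lower, in place of 2778 and 4107.

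Of the regulator lists under overexpression, GC correction, alone or with the replicate block, gave 3 prenylation and escort genes higher, 4 GEF genes higher, 10 GEF genes lower and 12 GAP genes lower, and quantile normalization 21 effector genes higher. Against 3NC with GC correction 1 prenylation and escort gene was higher and 5 were lower. Of all genes, 27.1% were higher and 27.2% lower after GC correction alone, and 33.3% and 33.6% against 3NC with it. Under knockdown, prenylation and escort genes higher numbered 4 against 5NC, 5 with GC correction as well and 3 against both controls, and those lower 0 in these 3 settings and 1 with equal sums or plain eBayes. GEF genes higher numbered 8 against 5NC or both controls and 15 against 5NC with GC correction, and those lower 10 and 8 against 5NC without and with it. Effector genes higher numbered 8 under quantile normalization, 12 against 5NC or both controls and 14 against 5NC with GC correction. With knockdown against 5NC, 24.7% of all genes were higher and 30.5% lower, and 31.8% and 29.5% with GC correction as well. Leaving out 1 library gave 0 to 1 prenylation and escort genes higher and 0 to 2 lower, 2 to 7 GEF genes lower, 3 to 9 effector genes higher and 5 to 12 lower.

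Directions turned as follows, as log2 fold changes. After GC correction, with or without the replicate block: in overexpression Rab14 at -0.18, Rab15 at 0.10, Rab20 at 0.085, Rab27b at -0.079, Rab5a at -0.059, Rab6b at 0.0053, Gdi2 at -0.0095, Plekhm2 at 0.080, Micall2 at 0.012. In the difference of effects Rab14 at -0.14, Rab3a at 0.016, Rab5a at -0.22. With 8276OV set directly against 8276KD: in the difference of effects Rab27b at 0.25, Rab28 at 0.13, Rab31 at 0.039, Rab40b at -0.75, Rab6b at -0.13, Rab7 at 0.17. Against the mean of both controls: in knockdown Rab28 at -0.16, Rab32 at -0.22, Rab35 at -0.015, Rab40b at 0.048, Rab7 at -0.034, Arl6ip5 at 0.098, Rab11fip2 at -0.032. Against the other control: in overexpression Rab10 at 0.15, Rab12 at 0.036, Rab22a at 0.078, Rab28 at 0.18, Rab30 at -0.0044, Rab8a at 0.31. In knockdown Rab10 at -0.22, Rab1b at -0.21, Rab22a at -0.11, Rab23 at -0.0084, Rab28 at -0.36, Rab30 at 0.024, Rab31 at -0.010, Rab32 at -0.61, Rab35 at -0.26, Rab40b at 0.55, Rab43 at -0.32, Rab5b at 0.023, Rab7 at -0.16, Arl6ip5 at 0.32, Dennd6a at -0.033, Dennd4c at 0.12, Rab11fip1 at 0.057, Rab11fip2 at -0.45. Against the other control with GC correction, a setting chosen after seeing the data: in overexpression Rab11a at -0.14, Rab14 at -0.14, Rab18 at -0.18, Rab1b at 0.043, Rab24 at 0.36, Rab2a at -0.036, Rab30 at -0.38, Rab34 at 0.098, Rab35 at 0.15, Rab40c at 0.099, Rab43 at 0.23, Rab8a at 0.30, Rab8b at -0.058, Rabggtb at -0.10, Arl6ip5 at -0.033, Gdi2 at -0.018, Hps1 at 0.28, Tbc1d9b at 0.15, Rilpl1 at 0.035, Rabep2 at 0.058. In knockdown Rab10 at -0.25, Rab14 at -0.083, Rab1b at -0.042, Rab20 at 0.27, Rab22a at -0.10, Rab23 at -0.019, Rab27b at -0.022, Rab28 at -0.39, Rab32 at -0.61, Rab35 at -0.16, Rab3a at 0.0030, Rab40b at 0.57, Rab43 at -0.18, Rab5a at -0.0025, Rab5b at 0.043, Rab5c at 0.16, Rab6b at 0.043, Rab7 at -0.15, Rabac1 at 0.096, Arl6ip5 at 0.33, Dennd6a at -0.095, Dennd4c at 0.085, Sgsm2 at 0.11, Rabep1 at -0.011, Exoc6 at -0.0022, Rab11fip1 at 0.10, Rab11fip2 at -0.52. Depth, estimated at 10741000 to 12422000 fragments, limits the low members: Rab30, Rab27b and Rab37 lie near 1.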

Other observations

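Rab36 and Rab39, both below the filter and picked out after their values were seen, differed in level between the control groups. Rab36 was 1.10, 1.23 and 0.86 in 5NC, against 0.37 to 0.74 in the other 9 libraries. Rab39 was 0.24, 0.17 and 0.31 in 5NC and 0.62, 0.74 and 0.74 in 3NC. Neither was tested, and at such levels a value rests on few fragments.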
